A study of Homo sapiens with 2 samples.

Results

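The genes EGFR, HBEGF, EREG, ERRFI1 and LRIG1 are a receptor, a pair of its ligands and a pair of its inhibitors, and they were described in AsPC-1 cells, a long-established line from a human pancreatic adenocarcinoma. They were taken by gene symbol from the platform annotation, and all 5 were found among 14884 named genes, each with 1 probe set. The cells of 1 culture were compressed at 2.9 mmHg for 24 h and those of the other culture stayed uncompressed for the same time, both grown in 3 dimensions under a collagen gel. Nothing in the labels names any other difference between the cultures, and what they share is the line, the medium and the gel. Total RNA of each culture was read on 1 whole-transcript array, and levels are log2 RMA signals, in which a difference of 1 is 2-fold. With 1 array per condition there is no estimate of the spread between cultures, so no test was made, no p-value is given, and "higher" and "lower" describe these 2 arrays alone.

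EGFR is a receptor tyrosine kinase of the ErbB family. Ligands such as heparin-binding EGF-like growth factor (HBEGF) and epiregulin (EREG) are made as membrane-bound precursors, are released by metalloproteases and bring receptors together in pairs, which turns on the kinase and, through RAS, the ERK cascade. Cells limit the signal through ERRFI1, also called MIG6, a cytoplasmic protein that binds the kinase domain and whose gene is itself induced by growth factor signalling, and through LRIG1, a transmembrane protein that lowers receptor levels. In pancreatic ductal carcinoma this pathway is known for driving growth.

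The receptor, both ligand genes and ERRFI1 gave higher signals on the compressed array, and LRIG1 did not. The reference sequence just before the start of each of the 5 genes is shown so that this division can be seen beside what the promoters share. Each is the 100 bases before the most upstream start listed by RefSeq (GRCh38.p14), on the strand of the gene. Capitals mark the GC box core GGGCGG and the TATA-like run TATANA on either strand, and neighbouring matches may overlap.
ERRFI1: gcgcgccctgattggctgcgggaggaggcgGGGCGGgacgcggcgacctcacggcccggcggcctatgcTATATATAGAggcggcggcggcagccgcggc
EGFR: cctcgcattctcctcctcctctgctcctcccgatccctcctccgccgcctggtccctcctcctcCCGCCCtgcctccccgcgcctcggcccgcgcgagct
HBEGF: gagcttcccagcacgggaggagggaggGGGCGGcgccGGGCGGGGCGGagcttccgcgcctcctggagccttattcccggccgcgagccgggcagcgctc
EREG: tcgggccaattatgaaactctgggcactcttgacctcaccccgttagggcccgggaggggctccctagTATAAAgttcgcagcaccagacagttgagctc
LRIG1: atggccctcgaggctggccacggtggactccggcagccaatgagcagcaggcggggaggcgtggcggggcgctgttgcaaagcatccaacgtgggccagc
The stretches are chr1:8026310-8026409 on the minus strand for ERRFI1, chr7:55018917-55019016 on the plus strand for EGFR, chr5:140346604-140346703 on the minus strand for HBEGF, chr4:74365045-74365144 on the plus strand for EREG and chr3:66501122-66501221 on the minus strand for LRIG1. RefSeq lists 2 starts for EGFR, 4 for LRIG1 and 1 for each of the others, and which start was used in these cells was not measured.

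Neither motif was present before all 4 genes with higher signals. In the stretches shown, ERRFI1, EGFR and HBEGF held GC boxes (1, 1 and 3 matches), whereas EREG and LRIG1 held none, against 31.2% of 27305 genes with at least 1 match in a stretch of this length. In windows of 300 bases (250 before the start and 50 after it) LRIG1 held 3 GC boxes, as did EGFR, HBEGF held 5, ERRFI1 1 and EREG 0, and 44.5% of genes held at least 1. EREG held 1 TATA-like run and ERRFI1 held 3 overlapping ones, EGFR, HBEGF and LRIG1 held none, and 8.63% of genes had at least 1. The G and C content was 78% for HBEGF, 76% for ERRFI1, 75% for EGFR, 70% for LRIG1 and 57% for EREG, beside a median of 60% over all genes. In the longer windows none of the 5 genes held TGANTCA, a motif bound by AP-1 factors, or the CArG box of the serum response element, which 7.72% and 1.29% of genes held. These matches describe letters in a window, not bound sites.

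ERRFI1 had the widest difference of the 5 genes. Its level was 9.67 on the compressed array and 8.69 on the uncompressed array, a difference of 0.98 (1.98-fold higher). Only 77 of the 7442 genes above the level floor, itself included, differed by as much upwards. The floor is a mean log2 level of 4.79 over both arrays, the median over named genes, and genes at or above it are called kept below.

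EGFR read 9.44 on the compressed array and 8.62 on the uncompressed array, a difference of 0.82 (1.76-fold higher). It ranked 127 of the 7442 kept genes by difference. The mean levels of EGFR and ERRFI1 lay 4.23 and 4.39 above the floor.

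The ligand genes lay on either side of the 1.5-fold size (0.58 on the log2 scale) used for counting. HBEGF, whose product also serves as a membrane-anchored signal before its release, read 5.66 on the compressed array and 4.93 on the uncompressed array, a difference of 0.74 (1.67-fold higher, rank 159). The uncompressed value is close to the floor, and no detection call was used here, so its fold is less certain than that of the brighter genes. EREG, a broad ErbB ligand that binds EGFR and ERBB4, read 8.82 on the compressed array and 8.26 on the uncompressed array, a difference of 0.57 (1.48-fold higher, rank 322). It was just under the counting size, and HBEGF was the nearest of the 5 above it.

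LRIG1 read 4.91 on the compressed array and 4.97 on the uncompressed array, a difference of -0.07. In the order of the kept genes it stood in the middle, with 37.2% of them below it, and its mean level was 0.15 above the floor. The inhibitor genes therefore differed from each other by 1.05 on the log2 scale, ERRFI1 minus LRIG1. Both LRIG1 values are close to the floor and no detection call was used here. The LRIG1 difference, and so this gap, is less certain than the differences of the brighter genes.

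**Figure D1:**
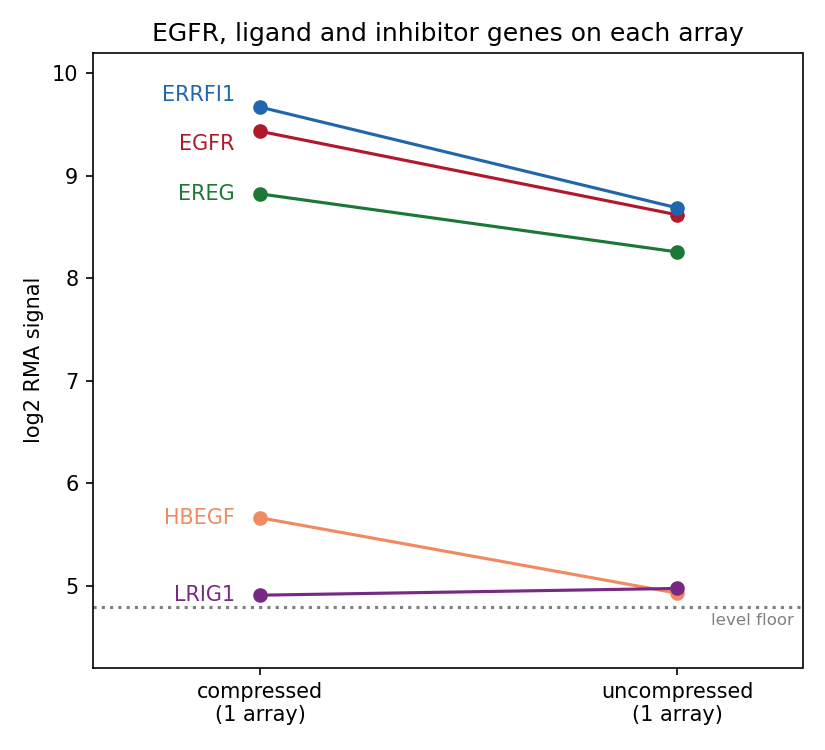
Log2 RMA signal (vertical axis) of each gene on the compressed and the uncompressed array, 1 array each, joined by a line, with the level floor of 4.79 dotted. The lines of ERRFI1, EGFR, EREG and HBEGF are higher at the compressed end and that of LRIG1 is nearly level, and heights of different genes come from different probe sets and are not comparable.

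In all, 3 of the 5 genes were at least 1.5-fold higher on the compressed array and 0 were at least 1.5-fold lower, beside 3.95% and 1.12% of all kept genes. The median difference of the 5 was 0.74, against 0.01 over the kept genes. The 5 genes were chosen with earlier results of these data known, so these values describe them and give no independent support. At 2-fold 0 of the 5 were counted (0.954% of kept genes), and at a smaller size of 0.32 on the log2 scale 4 were (13.5%).

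No second probe set was available for any of the 5 genes, so none of their differences has a check within the array. For scale, 150 protein-coding genes with exactly 2 different kept probe sets gave an SD of 0.18 for the difference of a single probe set. It is the SD of the gap between partners divided by the square root of 2. That SD covers probe design and hybridisation, not the spread between cultures. A gap between the differences of 2 probe sets had an SD of 0.26 in the same genes. The gaps among ERRFI1, EGFR, HBEGF and EREG were within it, except that between EREG and ERRFI1 (-0.42).

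**Figure D2:**
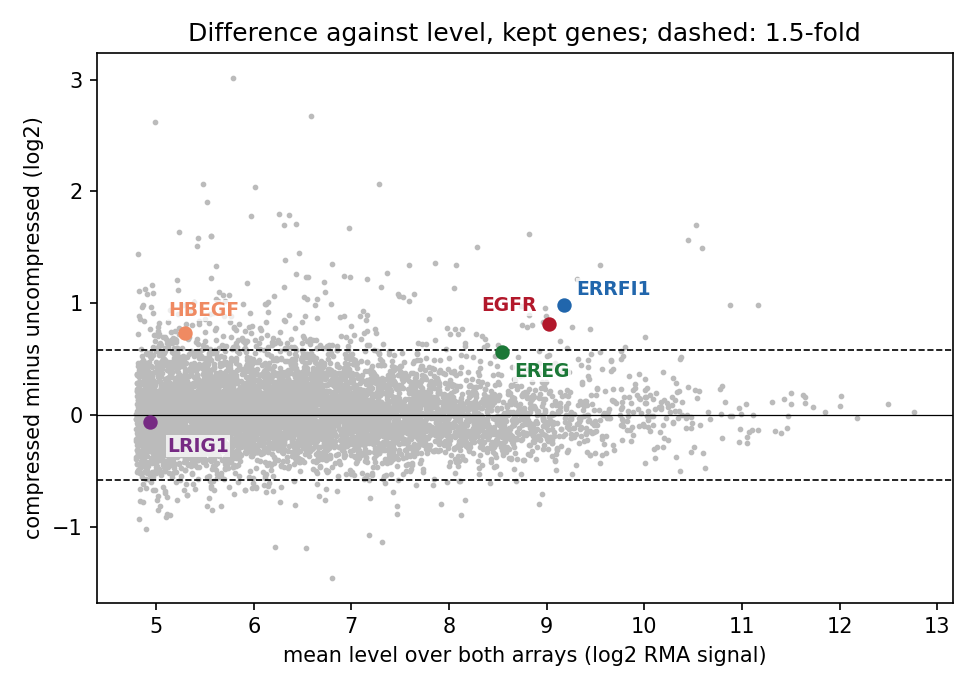
Difference compressed minus uncompressed (log2) against mean level (log2 RMA signal) for the 7442 kept genes in grey, with the 5 genes coloured and 1.5-fold dashed. ERRFI1 and EGFR stand above the cloud at high level, HBEGF above it at low level, EREG at the dashed line and LRIG1 inside the cloud.

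The identity of the cells was checked on markers. Of 10 named markers of duct and carcinoma epithelium 8 were kept. Among them were the keratin genes KRT19 (10.79 on the compressed and 10.78 on the uncompressed array) and KRT18 (11.71 and 11.54). EPCAM, an epithelial adhesion gene, was lower on the compressed array (10.43 and 10.77). The mean levels of KRT7 (3.78 and 3.36) and CLDN4 (4.73 and 4.80) did not reach the floor. With repeated quantile normalization the differences of KRT19, KRT18 and EPCAM were -0.23, 0.02 and -0.53. TSPAN8, a tetraspanin gene of this list, was 1.73-fold lower on the compressed array (7.52 and 8.31). Named markers of other cell types ranged from 1.82 to 9.39 on the compressed and from 1.79 to 9.75 on the uncompressed array for the 2 fibroblast genes, from 3.71 to 9.26 and from 3.65 to 9.04 for the 3 leukocyte genes, from 2.68 to 5.15 and from 2.77 to 5.22 for the 4 endothelial genes, and from 3.39 to 4.15 and from 3.20 to 4.50 for the 3 acinar and islet genes. In these, the kept genes were LUM (9.39 and 9.75), LYZ (8.82 and 9.04), CD68 (9.26 and 8.45) and CLDN5 (5.15 and 5.22). CD68, which also marks lysosomes, was 1.75-fold higher on the compressed array. The labels of both cultures name AsPC-1 cells and no other cell type. The headings used here are names of marker lists, not of cells known to be present. The part of other cell types in the differences of the 5 genes was not tested, and in bulk RNA fewer cells of a type and less RNA per cell cannot be told apart.

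Among the ErbB receptors, only EGFR passed 1.5-fold of the 3 with a named probe set, of which 2 were kept. Of all kept genes 3.95% passed it upwards. ERBB3, a receptor with little kinase activity of its own that signals in pairs with others, read 6.61 on the compressed array and 6.41 on the uncompressed array, a difference of 0.20. ERBB4 did not reach the floor (2.79 on the compressed and 3.16 on the uncompressed array). ERBB2 had no named probe set and was not analysed here.

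The other EGFR ligand genes with a named probe set were all below the floor. On the compressed and the uncompressed array, EGF read 2.71 and 2.93, EPGN, the epigen gene, 2.63 and 2.89, and BTC, the betacellulin gene, exactly 2.87 on both. HBEGF and EREG were thus the 2 kept ligands of 5 named, and TGFA and AREG were not analysed here. Without the level filter the ligand list had a median of 0, against 0.65 over its 2 kept genes. Exactly equal values were found for 5.82% of all probe sets and for 7 of 108 named genes of the lists, and they are taken as deposited.

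The neuregulins, ligands of ERBB3 and ERBB4, were not higher. NRG4 read 5.85 on the compressed array and 5.88 on the uncompressed array, and NRG2 read 4.92 and 5.15, with a dimmer second probe set at 4.11 and 4.44. NRG1 (3.79 and 4.07) and NRG3 (3.05 on both) were below the floor. Of the 2 kept neuregulins, 2 had a negative difference, beside 46.8% of kept genes.

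Genes that act on ligand release had small differences. Among the metalloproteases, ADAM9 differed by 0.41 (9.77 on the compressed and 9.36 on the uncompressed array), ADAM17, the main protease that releases HBEGF and EREG, by 0.36 (7.41 and 7.05) and ADAM10 by 0.25 (8.37 and 8.12), while ADAM12 was below the floor. RHBDF1 and RHBDF2, which encode the inactive rhomboids that carry ADAM17 to the cell surface, differed by 0.07 and 0.06 (RHBDF2 at -0.01 with repeated quantile normalization). CD9, a tetraspanin that associates with the HBEGF precursor, read exactly 5.81 on both arrays, and the tetraspanin gene CD82 differed by -0.25. In this list 0 of 7 kept genes passed 1.5-fold in either direction, beside 3.95% of all kept genes upwards and 1.12% downwards. A positive difference was found for 5 (50.8% of all kept genes), and the median was 0.07.

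ERRFI1 was the only receptor-level inhibitor of 9 named and kept that passed 1.5-fold, beside 3.95% of all kept genes upwards. The list also held CBL, CBLB, PTPN1 and PTPRJ, which had no named probe set and were not analysed here. LRIG2, a paralog of LRIG1, differed by 0.50 (5.32 on the compressed and 4.82 on the uncompressed array), and the third paralog LRIG3 by 0.09 (5.25 and 5.16). UBASH3B, a tyrosine phosphatase gene, differed by 0.49 (6.74 and 6.25), and RNF41, the gene of a ubiquitin ligase for ERBB3, by 0.24. The suppressor of cytokine signalling genes SOCS4, SOCS5 and SOCS3 differed by 0.16, -0.01 and -0.08. A second probe set of SOCS3, below the floor, read 2.93 on the compressed array and 2.19 on the uncompressed array, and with the mean of both probe sets SOCS3 was at 0.33. The list's median was 0.16, with 6 positive and 3 negative differences, beside 50.8% and 46.8% of kept genes.

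Downstream of the receptor, the adaptor and effector list and the RAS-ERK core each held both directions. Among 7 kept genes each had 5 positive and 2 negative differences, beside 50.8% and 46.8% of kept genes. In the RAS-ERK core, ARAF and NF1 were barely positive (0.023 and 0.008). With repeated quantile normalization they were at -0.015 and -0.0078. Of all kept genes 3.95% passed 1.5-fold upwards and 1.12% downwards. Of 7 kept adaptor and effector genes 1 passed, GRB7, an adaptor of ErbB receptors, at 1.52-fold higher (6.69 on the compressed and 6.08 on the uncompressed array). GRB7 fell under the size after loess correction (0.57) and after repeated quantile normalization (0.54). STAT3 and SOS1 differed by 0.29 and 0.25, GRB2 by -0.17 and NCK1 by -0.35 (list median 0.21). Of 7 kept RAS-ERK genes 1 passed, HRAS, a small GTPase gene, at 1.63-fold lower (5.45 and 6.15). MAP2K2 differed by 0.43, MAPK3 by 0.16, MAP2K1 by 0.13 and the scaffold gene KSR1 by -0.16 (list median 0.02). In receptor trafficking 0 of 7 kept genes passed and 7 had a positive difference, though USP8 was at -0.02 with repeated quantile normalization. EEA1, an early endosome tether, was just under the size at 0.58 (6.78 and 6.20), SH3KBP1 was at 0.25 and EPN1 at 0.21 (median 0.13).

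The ERK feedback list had 1 gene past 1.5-fold and the immediate-early list had 6. ERK activity was not measured. Of 9 kept ERK feedback genes 8 had a positive difference, beside 50.8% of kept genes, and 1 passed 1.5-fold upwards, beside 3.95%. That gene was SPRY4, a Sprouty inhibitor gene, at 1.64-fold higher (7.38 on the compressed and 6.67 on the uncompressed array). The AP-1 gene FOSL1 differed by 0.53 and the MAP kinase phosphatase gene DUSP4 by 0.50, while ETV5 was at -0.08 (list median 0.43). The feedback genes DUSP5 and SPRY3 were below the floor and differed by -0.21 and -0.25. Their dimmer second probe sets differed by 0.38 and -0.20, and with the mean of both probe sets DUSP5 was at 0.09. IER3 stood at 0.50, or at 0.30 when quantile normalization was repeated. Of 12 kept immediate-early genes 6 passed upwards, beside 3.95% of kept genes, which were DUSP1 (2.07), EGR1 (1.15), KLF6 (1.08), FOS (0.69), JUND (0.62) and FOSB (0.59), and KLF4 (-0.27), MYC (-0.19) and JUN (-0.15) were negative (list median 0.59). With the mean of their probe sets FOS and FOSB were at 0.56 and 0.36, under the size, and with repeated quantile normalization FOSB and JUND were at 0.55 and 0.57. FOSB was also under it after loess correction, at 0.58. The immediate-early genes ATF3 and EGR3 were below the floor and differed by 1.01 and -0.04. These lists were chosen with earlier results of these data known, so their counts are descriptions and not independent support.

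**Figure D3:**
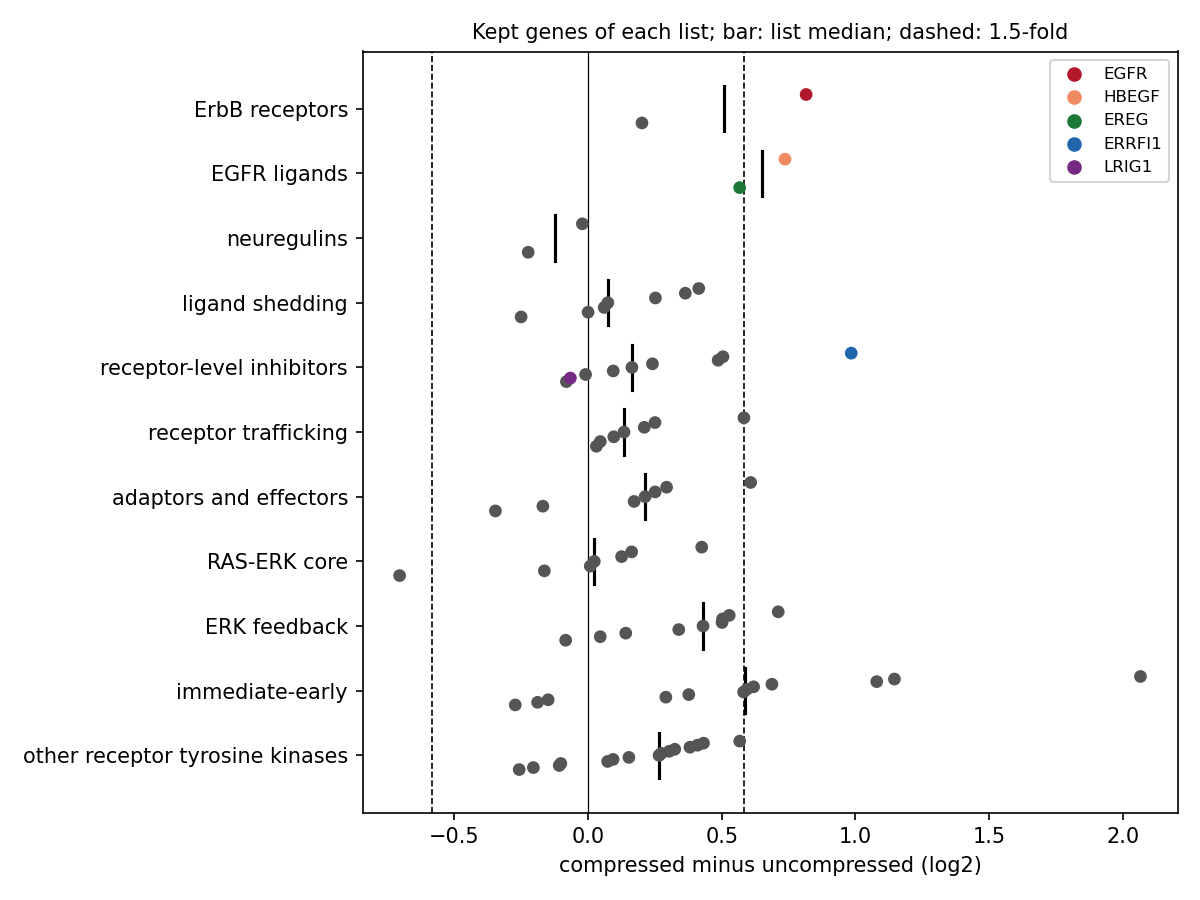
Difference compressed minus uncompressed (log2, horizontal axis) of each kept gene, by list, with the list median as a bar and 1.5-fold dashed. The coloured points of ERRFI1, EGFR and HBEGF lie beyond the dashed line, EREG just inside it and LRIG1 near 0, while immediate-early genes reach 2.07 (DUSP1).

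EGFR was set beside the other receptor tyrosine kinases to place its difference within the receptor class. Of 17 kept receptor genes, ErbB and others together, EGFR had the largest positive difference. It was alone past 1.5-fold, beside 3.95% of all kept genes upwards. The next were IGF1R at 0.57 (6.20 on the compressed and 5.64 on the uncompressed array), AXL at 0.43 (8.34 and 7.91) and FGFR1 at 0.41 (5.26 and 4.86). MET, the hepatocyte growth factor receptor gene, was nearly level at 0.07 (10.21 and 10.14), or at -0.04 with repeated quantile normalization, and the lowest were DDR1 at -0.26, FGFR4 at -0.20 and TYRO3 at -0.11. The 15 kept receptors outside the ErbB family had a median of 0.27, with 11 positive and 4 negative differences (50.8% and 46.8% of all kept genes), and a median of 0.05 over all 30 named ones without the level filter. Whether EGFR differed from IGF1R beyond the spread between cultures was not tested, since there is 1 array per condition.

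**Figure D4:**
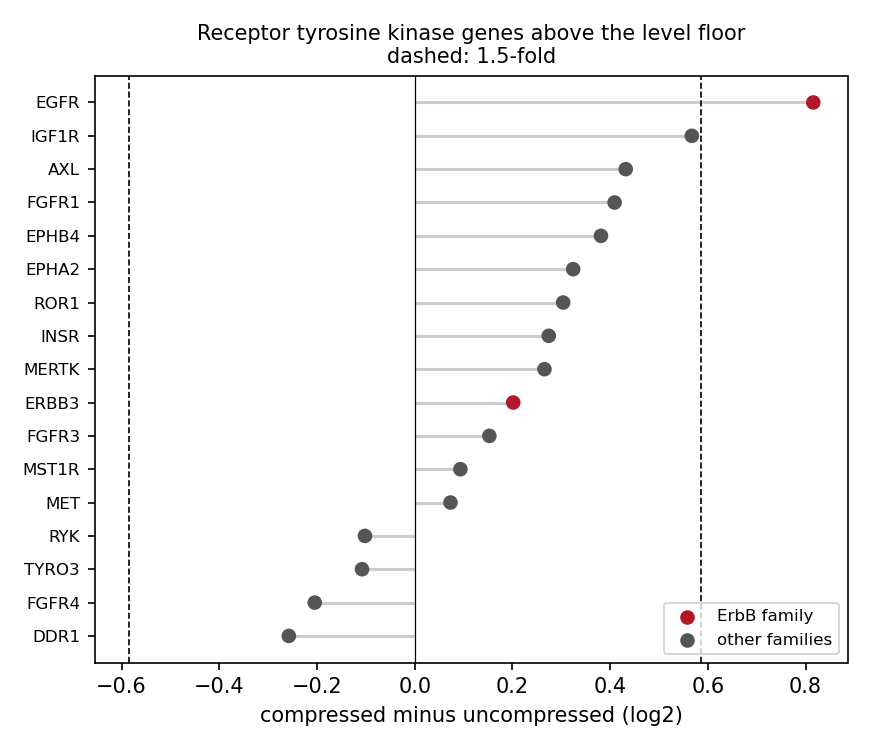
Difference compressed minus uncompressed (log2, horizontal axis) of the 17 receptor tyrosine kinase genes above the level floor, ErbB receptors in red, others in grey, 1.5-fold dashed. EGFR at 0.82 is the single point past the dashed line, and IGF1R at 0.57 is just inside it.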

How the data were processed

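RNA of 1 compressed and 1 uncompressed AsPC-1 culture was measured on 2 arrays, and groups came from the treatment label. The deposited values are log2 signals, for which the submitters' processing notes name RMA and, with no role given, Transcriptome Analysis Console. The tool versions, array library files and build were not given in the sources used here. RMA equalises the distributions of the arrays and so removes a change shared by all genes. Of 53617 probe sets, the platform annotation named 16098 with 1 gene each and 0 with several; current symbols came from RefSeq through the gene identifier, and the 37519 others were not used here. For each gene the probe set with the highest mean was used, and genes at or above the median mean were kept. Over kept genes the arrays correlated at 0.972 (Pearson, across genes). The number of arrays limits the precision.

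The members and lists were chosen with earlier results of these data known. Named were the 5 genes, all named ErbB receptors, ligands, neuregulins and receptor-level inhibitors, in other lists genes past 1.5-fold plus up to 3 extremes in each direction, and the 3 protein-coding genes nearest in difference to each member past 1.5-fold, of which 1 is not reported here. Alternatives were the level filter, the probe set rule, loess (span 0.3), centring, repeated quantile normalization, sizes of 2-fold and of 0.32 on the log2 scale, protein-coding genes alone, and list means. Python 3.11.15, NumPy 2.4.6, pandas 2.3.3 and statsmodels 0.14.6 were used.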

Additional observations from a re-analysis of the deposited data

How the results depend on the processing

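The differences of the 5 genes kept their direction and their side of 1.5-fold under the mean of probe sets, loess, centring and repeated quantile normalization. They ranged from 0.94 to 1.00 for ERRFI1, 0.80 to 0.83 for EGFR, 0.71 to 0.74 for HBEGF, 0.56 to 0.58 for EREG and -0.07 to -0.04 for LRIG1. The count of 3 of the 5 was 2 with the floor at the 75th percentile, which HBEGF and LRIG1 do not reach, 0 at 2-fold and 4 at a size of 0.32 on the log2 scale. The counts over all kept genes, 294 higher and 83 lower, were 560 and 421 when no genes were filtered out, 137 and 30 when the floor was the 75th percentile, 71 and 6 at 2-fold, and 1005 and 616 at the smaller size. With no level filter the median was 0.20 for ErbB receptors, 0 for EGFR ligands and 0.051 for other receptor tyrosine kinases. With the stricter filter it was 0.36 for ligand shedding and 0.074 for the RAS-ERK core. With the mean in place of the median it was 0.13 for ligand shedding, 0.26 for receptor-level inhibitors, 0.17 for other receptor tyrosine kinases and -0.018 for the RAS-ERK core, which changed sign. After repeated quantile normalization the RAS-ERK core was at -0.0078, also a change of sign, and receptor-level inhibitors at 0.11. With the mean of all probe sets the neuregulins were at -0.021, because only NRG4 was then kept. A list's median was treated as moved beyond 0.05 and beyond 1.5 times; the causes of the other moves were not tested. No paired analysis was possible because each condition has 1 array. The level of dim probe sets against background is unknown.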

Other observations

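The protein-coding neighbours of the 5 genes in RefSeq order were looked up by position after the values of the 5 were known. LANCL2, next to EGFR, read 6.84 on the compressed array and 6.82 on the uncompressed array. PFDN1, next to HBEGF, differed by 0.28, and PARK7, next to ERRFI1, by -0.19. EPGN, a ligand gene next to EREG, and KBTBD8, next to LRIG1, were below the floor. None of these 5 neighbours passed 1.5-fold, beside 3.95% of kept genes upwards and 1.12% downwards. The other 5 neighbours had no named probe set here.

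Among the kept protein-coding genes, those nearest in difference to EGFR included RPL36A-HNRNPH2, a readthrough gene (5.84 on the compressed and 5.03 on the uncompressed array), and BMP1, the procollagen C-proteinase gene (5.72 and 4.90). Nearest to HBEGF were OPTN, an autophagy receptor gene (7.50 and 6.76), NPIPA1, of a multicopy family, and WDR26 (5.52 and 4.78). Nearest to ERRFI1 were the near-identical heat shock genes HSPA1A (11.65 and 10.67) and HSPA1B (11.37 and 10.38) and the isoprenoid enzyme gene IDI1 (7.12 and 6.14). Likeness here is the gap between single differences over 2 arrays, and 30, 44 and 15 other kept protein-coding genes lay within 0.05 of EGFR, HBEGF and ERRFI1.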
